A study of Mus musculus with 6 samples.

Results

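Transcripts of 10 genes around Dap12 were examined in mouse brain: Dap12 itself (gene symbol Tyrobp), the partner adaptor Hcst (DAP10), the receptors Trem2 and Clec5a, and the signalling proteins Syk, Plcg2, Pik3cd, Vav1, Inpp5d and Ptpn6. The genes were given by name, and every probe set (a group of short probes for 1 transcript) whose single symbol in the platform annotation was one of them was taken, dim ones included. This gave 22 probe sets for 10 of the 18193 genes with such a probe set on the array, out of 45037 probe sets tested in all. The samples were total RNA of 3 Dap12-ko mice (67, 68 and Ko1) and 3 Dap12-het mice (75, 76 and 81), each on 1 one-colour array, and values of a group are given in that order throughout. All were 1 month old, and the tissue was the midbrain, by which the submitters mean diencephalon and basal ganglia. One source label, Dap12-deficient brain, covers all 6 samples, so the groups were taken from the titles. The controls carried 1 working copy of the gene, so the comparison is of no working copy against 1, and wild-type mice were not analysed here. Strain, sex and the part of Tyrobp that was removed are not given in the labels, and the p-values rest on the spread among 3 animals a group.

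DAP12 is a small membrane adaptor with almost no extracellular part. It pairs with receptors that have a short tail, such as Trem2 and Clec5a, and its cytoplasmic tyrosine motif (an ITAM), once phosphorylated by Src family kinases, recruits the kinase Syk. Syk in turn engages phospholipase C gamma 2 (Plcg2), PI3-kinase (Pik3cd encodes the delta catalytic subunit) and the Rac exchange factor Vav1, while the lipid phosphatase SHIP1 (Inpp5d) and the tyrosine phosphatase SHP-1 (Ptpn6) restrain the pathway. DAP10 carries a different motif that binds PI3-kinase directly. In brain these proteins are found mainly in microglia, which are a small share of the tissue.

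Tyrobp was the only one of the 10 genes that was lower in each knockout than in any heterozygote. Its single probe set, 1450792_at, read 2.28, 23.7 and 12.9 in knockouts 67, 68 and Ko1 against 70.7, 68.2 and 77.6 in heterozygotes 75, 76 and 81, in the arbitrary intensity units of the deposited table. The heterozygous arrays lay close together, whereas the knockout arrays were spread over a wide range, from near nothing on 67 to a level on 68 well below any heterozygous array. The mean was 12.9 ± 10.7 against 72.2 ± 4.87 (SD, n = 3). Knockout 67 lay below the highest signal of the Trpn control probe sets (12.02) and Ko1 just above it, so the ratio of the means, 5.57, has a denominator near the lower limit of the arrays. Ranked among all probe sets of its own array, Tyrobp stood at the 68.4 to 70.3 percentile on heterozygous arrays and at the 6.35, 38.8 and 34.8 percentile on knockout 67, 68 and Ko1. This ranking does not use the scaling of the arrays.

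In a fit over all probe sets on the log2(signal + 16) scale, which understates changes of dim probe sets, the log2 change of Tyrobp, knockout minus heterozygous, was -1.68 ± 0.36 (SE), with a 95% interval from -2.48 to -0.87. Its adjusted p in limma was 0.0952, so the targeted gene did not pass the threshold of 0.05 when all 45037 probe sets were tested. It did pass among the 22518 probe sets above the median level (limma adjusted p = 0.0439), a test in which 0.733% of probe sets were called lower. That filter used the mean over all arrays, and Tyrobp was above the median of its array only on heterozygous arrays. The filtered result is therefore no separate support for the fall. Without knockout Ko1 Tyrobp passed as well (-1.71, limma adjusted p = 0.0289), where 4.74% of probe sets were called lower. The exact permutation test, two-sided, gave p = 0.1, the smallest that 3 arrays against 3 allow, and groups without overlap and with lower knockout signals occurred for 7.42% of all probe sets. Where the probe set lies relative to the removed part of the gene was not tested, and what the remaining signal on knockout 68 and Ko1 comes from was not tested.

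Summed microglial markers lay on the other side. The summed signal of 23 microglial genes, each on its brightest probe set, was 4233, 4174 and 4944 in the knockouts against 3142, 3304 and 3687 in the heterozygotes. All knockout sums thus lay above all heterozygous sums. The same held for 7 of 9 lists of cell type markers in all, those of neurons and oligodendrocytes among them. The microglial sum is carried most by its brightest genes, Csf1r, Ctss and C1qa. Of the 23 microglial genes 18 had changes above 0, beside 64.3% of all probe sets, with a median of 0.29 on the log2 scale. Of their 36 probe sets 0 were called (limma, 8 at an unadjusted p under 0.05). Relative to the mean log2 level of these markers on the same array, a measure added after the data were seen, Tyrobp was at -0.22, -0.26 and -0.26 on heterozygous 75, 76 and 81. It was at -2.80, -1.59 and -2.37 on knockout 67, 68 and Ko1, a difference of -2.004 (exact permutation p = 0.1, the smallest possible). The markers covered Csf1r, the receptor microglia need to survive (1208 ± 116 against 955 ± 187, SD, n = 3), and Cx3cr1, the fractalkine receptor (215 ± 55.5 against 158 ± 14.4). The other Csf1r probe sets, chosen after their values were seen, had log2 changes of -0.36 ± 0.39 in 1419873_s_at and 0.071 ± 0.23 in 1423593_a_at. With arrays centred on their medians both Csf1r and Cx3cr1 took the other sign on these brightest probe sets. P2ry12, a purine receptor of resting microglia, was at 206 ± 83.6 against 100.04 ± 18.6, and C1qa, a complement subunit, at 464 ± 117 against 235 ± 9.07. Aif1, which encodes Iba1, was at 40.6 ± 15.002 against 47.1 ± 9.57, with a change below 0. Itgam, an integrin of myeloid cells, was at 42.1 ± 23.1 against 16.04 ± 4.13. Of the 23 brightest probe sets 7 were higher on all knockout arrays without overlap and 1 was lower, beside 16.9% and 7.42% of all probe sets. The 1 was Tmem119 1451344_at, a membrane protein of resident microglia, named after its values were seen, at 92.5 ± 16.7 against 124 ± 6.03 (log2 change -0.37 ± 0.22, limma adjusted p = 0.404). In whole tissue, fewer cells of a type and less RNA per cell cannot be told apart.

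**Figure D1:**
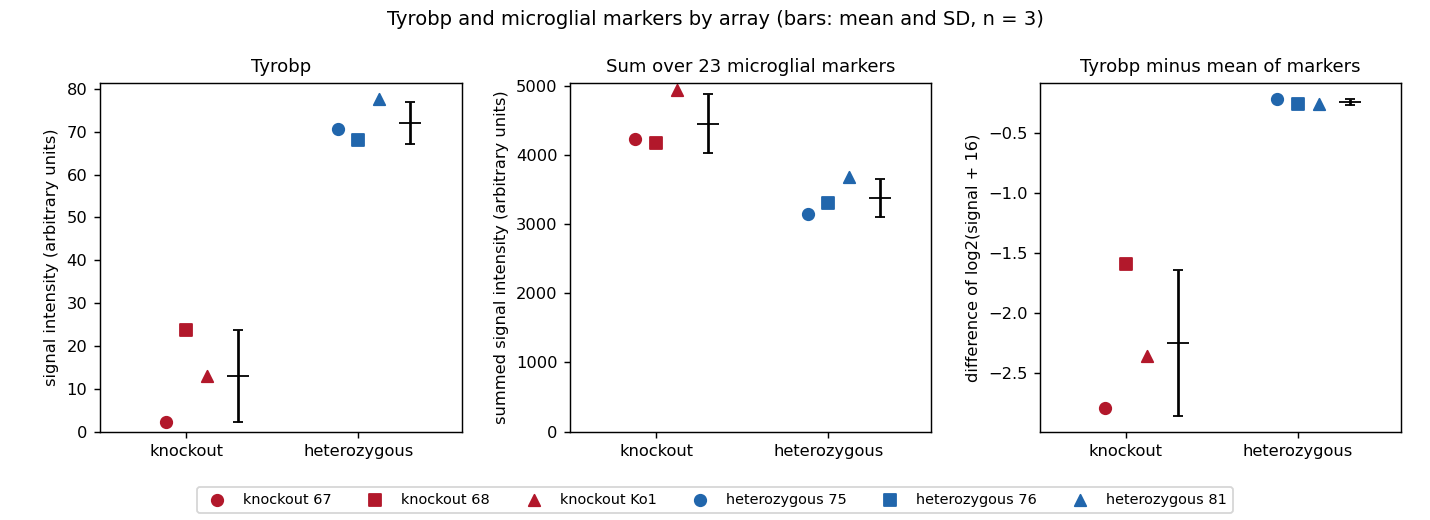
Signal intensity of Tyrobp (left), the summed signal of 23 microglial markers (middle) and Tyrobp relative to the mean of those markers on the log2(signal + 16) scale (right), each point 1 array, with the mean and SD of 3 arrays beside it. The knockout arrays lie below the heterozygous ones for Tyrobp (2.28 to 23.7 against 68.2 to 77.6) and above them for the marker sum (4174 to 4944 against 3142 to 3687).

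Facts of the arrays as a whole bear on every value that follows. The table had been scaled so that the trimmed mean (2% removed at each end) was the same on each array, yet the median signal was 24.6 to 40.3 on knockout arrays and 20.3 to 21.9 on heterozygous ones, and the median change of all probe sets was 0.16. Knockout 67 and 68 stood apart: their log2 values correlated with those of the heterozygous arrays at 0.891 to 0.921, against 0.942 to 0.954 for knockout Ko1 and 0.968 to 0.982 among heterozygous arrays. Spiked bacterial and phage controls, which are not mouse transcripts, were higher on all 3 knockout arrays than on all heterozygous arrays for 18 of 18 hybridisation controls and 24 of 24 poly-A controls. Their part in the members' values was not tested. The 3 prime to 5 prime signal ratio of Actb, a measure of RNA integrity, overlapped between the groups (1.76 to 2.33 on knockout and 1.59 to 2.12 on heterozygous arrays). In all, 124 probe sets were called (0.275%), 63 higher (0.14%) and 61 lower (0.135%), and 7614 (16.9%) reached an unadjusted p under 0.05.

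Against that background none of the 22 member probe sets was called, higher or lower (0 of 22, limma; 6 at an unadjusted p under 0.05, Tyrobp among them). Apart from Tyrobp, 16 of 21 probe sets had changes above 0, that is 76.2%, with a median of 0.42. Among all probe sets 64.3% had changes above 0, and among the 27882 with a mean signal under 50, as 20 of the 21 were, 76.3% did, with a median of 0.26. The members' share above 0 was thus close to that of other dim probe sets. Knockout signals lay above all heterozygous signals without overlap for 4 of the 21 (19.0%), beside 16.9% of all probe sets and 19.1% of the dim ones. The median distance of the 21 from their heterozygous means was 0.80 on knockout 67, 0.31 on 68 and 0.14 on Ko1, so knockout 67 contributed most. Centring the arrays on their medians turned the median of the 22 from 0.36 to -0.04. The median of all probe sets turned negative as well, and it lay under that of the members in both fits.

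**Figure D2:**
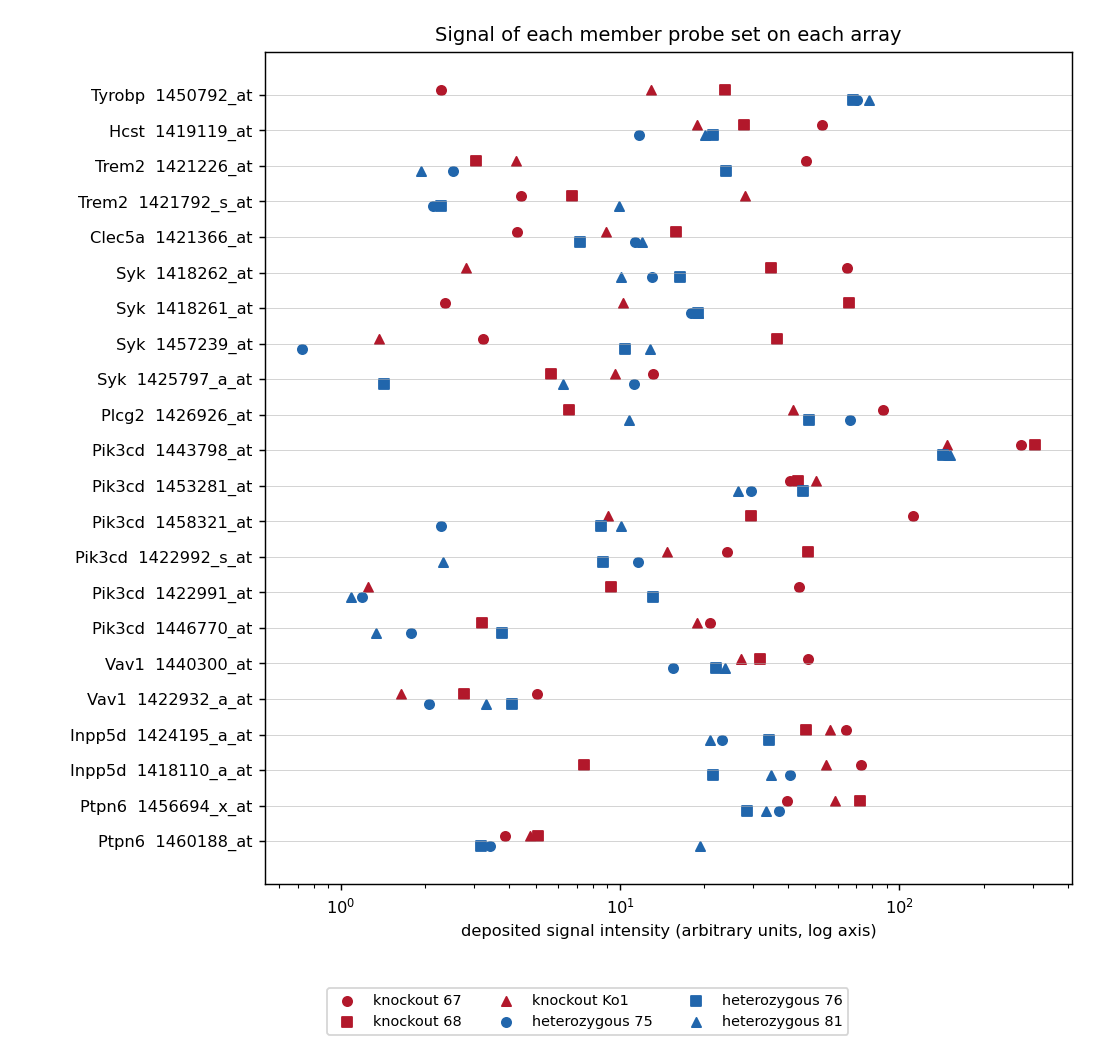
Deposited signal intensity (log axis) of each of the 22 member probe sets on the 6 arrays, red for knockout and blue for heterozygous, with 1 marker shape per array. Tyrobp is separated downwards on knockout arrays, 4 probe sets (Pik3cd 1422992_s_at, Vav1 1440300_at, Inpp5d 1424195_a_at and Ptpn6 1456694_x_at) are separated upwards, and the others overlap.

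Signals were low throughout. Of the 132 member values (22 probe sets on 6 arrays), 58 (43.9%) were at or under 12.02, the highest value of the 3 Trpn control probe sets, whose signals began at 0.35, and 33.5% of all values of the table were that low. A member stayed above that level on all arrays for 5 probe sets, those of Pik3cd (1443798_at and 1453281_at), Vav1 (1440300_at), Inpp5d (1424195_a_at) and Ptpn6 (1456694_x_at). A filter on the mean level kept 8 of the 22: 2 each for Pik3cd and Inpp5d and 1 each for Tyrobp, Plcg2, Vav1 and Ptpn6. Hcst, Trem2, Clec5a and Syk had no probe set that passed it.

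Hcst, the neighbour of Tyrobp on chromosome 7 in RefSeq, encodes the adaptor DAP10 of activating receptors such as NKG2D. Its probe set 1419119_at read 52.8, 27.7 and 18.9 in the knockouts against 11.7, 21.4 and 20.1 in the heterozygotes. Knockout 67 and 68 were above all heterozygous arrays and Ko1 was within their range. The log2 change was 0.50 ± 0.36, with a 95% interval from -0.32 to 1.31 (limma adjusted p = 0.493). No change and a clear increase both lie within this interval, and no knockout signal was below the lowest heterozygous signal, 11.7. The heterozygous signals were too low for a fall of the size seen for Tyrobp to appear on this scale, which understates changes of dim probe sets. The interval was therefore not compared with the fall of Tyrobp.

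Trem2, the lipid-sensing receptor whose signal passes through DAP12, was near the lower limit of the arrays, and its probe sets did not point to the same arrays. Probe set 1421226_at read 46.2, 3.05 and 4.24 in the knockouts against 2.53, 23.9 and 1.93 in the heterozygotes. In it 1 array of each group, knockout 67 and heterozygous 76, carried almost all of the signal. Probe set 1421792_s_at read 4.42, 6.71 and 28.0 on the knockout arrays and 2.13, 2.28 and 9.93 on the heterozygous ones, highest on knockout Ko1 and heterozygous 81. Their log2 changes were 0.29 ± 0.49 (adjusted p = 0.781) and 0.42 ± 0.32 (adjusted p = 0.516, both limma), and the first turned to -0.27 without knockout 67.

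Clec5a (MDL-1), a C-type lectin receptor of myeloid cells that also uses DAP12, read 4.26, 15.9 and 8.91 in the knockouts against 11.3, 7.20 and 12.01 in the heterozygotes. The groups overlapped, and the log2 change of -0.05 ± 0.26 (limma adjusted p = 0.939) took the other sign without knockout 67 (0.11). Knockout 68 alone exceeded the highest Trpn control signal.

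Syk, the kinase that docks on the phosphorylated ITAM, had 4 probe sets, with 3 changes above 0 and 1 below, none called (limma; 0 at an unadjusted p under 0.05). Probe set 1418262_at read 64.9, 34.7 and 2.79 in the knockouts against 12.96, 16.4 and 10.05 in the heterozygotes, so that the knockout group held both the highest values and the lowest. Its log2 change was 0.55 ± 0.50 (adjusted p = 0.577), and it was -0.63 without knockout 67 and 68. Probe set 1418261_at was at 2.36, 65.8 and 10.2 in the knockouts, while the heterozygotes held to a narrow band from 17.9 to 18.9. There knockout 67 was the lowest array, whereas in 1418262_at it was the highest. The remaining probe sets, 1457239_at and 1425797_a_at, ran from 0.724 to 36.5 and from 1.43 to 13.1.

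Plcg2, the phospholipase that turns Syk activity into calcium release, varied within both groups. It read 87.0, 6.55 and 41.7 in the knockouts against 66.5, 47.3 and 10.7 in the heterozygotes. The ranges nearly coincided, and the log2 change was -0.02 ± 0.60 with a 95% interval from -1.36 to 1.32 (limma adjusted p = 0.989). The interval is wide in both directions, so these arrays bound the change of Plcg2 only loosely.

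Pik3cd, the leukocyte PI3-kinase subunit, had 6 probe sets, and in all of them the change was above 0, with 4 at an unadjusted p under 0.05 and 0 called (limma). The brightest member probe set of all, 1443798_at, read 273 and 306 on knockout 67 and 68 but 148 on Ko1, which lay among the heterozygous values of 146, 143 and 151. Its log2 change was 0.61 ± 0.26 (adjusted p = 0.28), and 0.91 without Ko1 (adjusted p = 0.0133), a fit in which 8.34% of all probe sets were called higher. Probe set 1422992_s_at read 24.1, 46.97 and 14.7 in the knockouts against 11.5, 8.67 and 2.31 in the heterozygotes. It was the one Pik3cd probe set whose groups did not overlap (0.88 ± 0.36, adjusted p = 0.262).

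The largest member change after that of Tyrobp was in Pik3cd 1458321_at, at 112, 29.5 and 9.01 in the knockouts against 2.28, 8.51 and 10.1 in the heterozygotes (1.21 ± 0.54, adjusted p = 0.295). It too was called without Ko1 (1.75, adjusted p = 0.0484). Knockout Ko1 again lay within the heterozygous range, and knockout 67 was far above the rest. The other 3 were 1453281_at, at 40.7 to 50.4 against 26.3 to 45.3, 1446770_at, at 3.199 to 21.0 against 1.33 to 3.78, and 1422991_at, at 1.25 to 43.6 against 1.08 to 13.1. The 6 probe sets share a gene and the same RNA, so their common sign is not 6 separate observations.

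Vav1, which activates Rac and so links Syk to the cytoskeleton, had 1 probe set above the lower limit. In 1440300_at knockout 67, 68 and Ko1 read 47.1, 31.8 and 27.1 and heterozygous 75, 76 and 81 read 15.5, 22.1 and 23.8, with no overlap (0.48 ± 0.32, limma adjusted p = 0.458). The second probe set, 1422932_a_at, stayed between 1.64 and 5.05 on all arrays and differed by almost nothing between the groups (-0.0028).

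The inhibitory phosphatases each had 1 probe set in which the knockout arrays were higher without overlap and 1 in which they were not. Inpp5d 1424195_a_at read 64.2, 46.1 and 56.4 in the knockouts against 23.2, 34.1 and 21.0 in the heterozygotes, a mean of 55.6 ± 9.04 against 26.1 ± 7.01 (SD, n = 3). All 3 knockout arrays contributed, unlike for Pik3cd 1443798_at, and the log2 change was 0.77 ± 0.30 (95% interval 0.09 to 1.45, limma adjusted p = 0.253). The other Inpp5d probe set, 1418110_a_at, was at 72.6, 7.43 and 54.4 against 40.4, 21.5 and 34.7, where knockout 68 was the lowest array of all (0.15 ± 0.49, adjusted p = 0.893).

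Ptpn6 1456694_x_at read 39.5, 72.02 and 58.7 in the knockouts against 36.95, 28.5 and 33.3 in the heterozygotes (0.55 ± 0.31, limma adjusted p = 0.381). The gap between the lowest knockout and the highest heterozygous array was small, and the suffix _x marks a probe set that may also bind other transcripts. Ptpn6 1460188_at was at 3.85 to 5.09 on knockout arrays and at 3.42, 3.17 and 19.3 on heterozygous arrays, so its change of -0.20 ± 0.26 rested on heterozygous 81 and was 0.09 without it. The summed microglial markers were also higher on all 3 knockout arrays, as were the sums of T and NK cells, B cells, border macrophages and monocytes, oligodendrocytes, astrocytes and neurons, 7 of 9 marker lists in all. Their part in the values of Inpp5d, Ptpn6 and Vav1 was not tested.

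**Figure D3:**
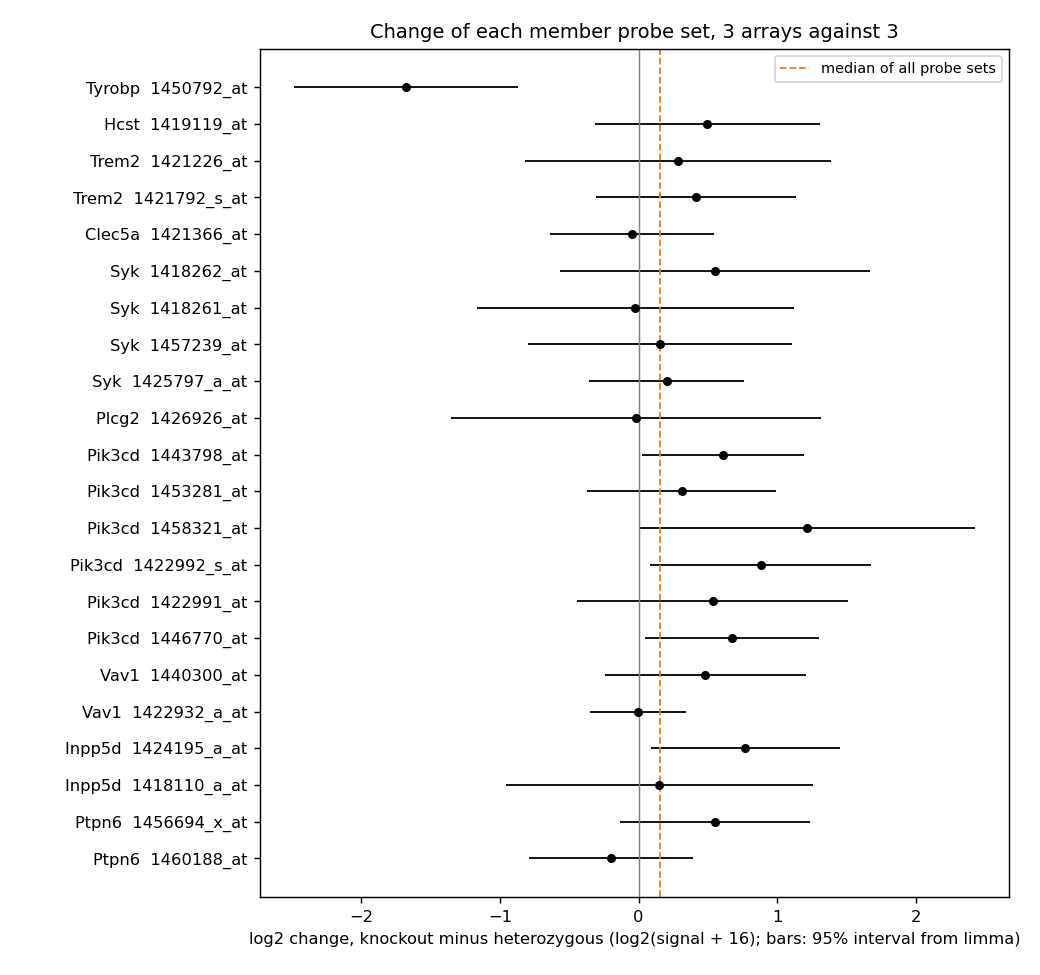
Change on the log2(signal + 16) scale, knockout minus heterozygous, of each of the 22 member probe sets, with 95% intervals from limma and a dashed line at the median of all probe sets (0.16). Tyrobp lies at -1.68, and the intervals of most others cross 0, the exceptions being 4 of Pik3cd and Inpp5d 1424195_a_at.

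Many of these genes are transcribed in myeloid cells under the ETS factor PU.1, whose core site is known as the PU box, GAGGAA. The 300 bases around the start site (250 before, 50 after, RefSeq, GRCm38.p6) were found for 9 of the 10 genes, in 12 windows. GAGGAA or its reverse complement TTCCTC stood in a window of 5 genes (Inpp5d, Clec5a, Syk, Trem2 and Vav1), in 5 of the 12 windows, while 28.3% of 32851 such windows of all genes held it. A match is a description of these letters and not a site. Pik3cd and Ptpn6, which like Inpp5d and Vav1 had a probe set that was higher on all knockout arrays, held no match in their windows. Of the windows with a match, those of Inpp5d, Vav1 and Trem2, the partner receptor of DAP12, are shown to give the letters around it. Each reads from 5′ to 3′ on the gene's strand, with matches in capitals.
Inpp5d, chr1:87620062-87620361, plus strand: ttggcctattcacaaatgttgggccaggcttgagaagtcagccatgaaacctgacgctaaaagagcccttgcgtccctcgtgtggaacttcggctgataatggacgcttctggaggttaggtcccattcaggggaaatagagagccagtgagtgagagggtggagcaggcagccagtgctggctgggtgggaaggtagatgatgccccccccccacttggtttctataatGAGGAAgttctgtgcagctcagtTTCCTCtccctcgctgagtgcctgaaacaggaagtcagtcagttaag
Vav1, chr17:57278850-57279149, plus strand: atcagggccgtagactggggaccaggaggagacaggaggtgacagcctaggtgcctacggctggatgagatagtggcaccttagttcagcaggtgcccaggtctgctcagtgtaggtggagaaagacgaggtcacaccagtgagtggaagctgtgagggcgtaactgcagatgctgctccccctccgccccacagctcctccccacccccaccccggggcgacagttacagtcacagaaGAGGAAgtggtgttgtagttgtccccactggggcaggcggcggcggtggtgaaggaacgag
Trem2, chr17:48346151-48346450, plus strand: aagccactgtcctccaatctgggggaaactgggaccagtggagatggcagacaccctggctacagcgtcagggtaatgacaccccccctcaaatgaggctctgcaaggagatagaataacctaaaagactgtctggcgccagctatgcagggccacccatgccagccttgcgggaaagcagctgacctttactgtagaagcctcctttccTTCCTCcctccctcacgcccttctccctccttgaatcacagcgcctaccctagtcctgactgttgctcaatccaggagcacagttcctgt
The Inpp5d window holds 2 matches and the others 1 each.

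Other genes of the pathway were taken from a list of 132 in 8 roles, of which 118 had a probe set with a single symbol, 251 probe sets in all. Of these 1 was called higher and 0 lower (limma; 56 at an unadjusted p under 0.05), beside 0.275% of all probe sets, and the median change was 0.27. The 1 was Ptk2b 1442927_at, for the calcium-sensitive kinase Pyk2 that neurons also express. It read 65.4, 73.7 and 86.8 in the knockouts against 3.31, 5.18 and 2.55 in the heterozygotes, and rose, with a log2 change of 2.21 ± 0.31 (adjusted p = 0.0289 in limma). Its call was lost without any single array other than knockout Ko1, with adjusted p from 0.0929 to 0.237, and with the Xist level as a covariate (adjusted p = 0.131). The brighter Ptk2b probe set, 1434653_at, had a change of 0.38 ± 0.36 (adjusted p = 0.597), so the call was made on the dimmer probe set and not on the brighter.

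The list of receptors around Tyrobp and Hcst was broad. Besides direct partners it held genes such as Csf1r, Itgam, Itgb2, Itgb3, Plxna1 and Tlr4, so its counts are not those of direct partners alone. The list stood on the higher side on knockout arrays, with none called: 31 of 36 probe sets had changes above 0, and the median was 0.40. Of the 36, 13 (36.1%) were higher without overlap, beside 16.9% of all probe sets and 19.1% of the dim ones. At an unadjusted p under 0.05 there were 9 (limma). Most were dim, 32 of them with a mean under 50. Those with the smallest p were Tlr4 1430695_at, a lipopolysaccharide receptor that is on the list but does not itself use DAP12 as its standard adaptor (24.5 ± 10.4 against 2.30 ± 2.83, adjusted p = 0.136), and Treml4 1460014_at (11.03 ± 4.23 against 0.845 ± 0.321, adjusted p = 0.158). Of the 4 Tlr4 probe sets 3 had changes above 0, and 1418162_at had a change of -0.19. Markers of T and NK cells, dim as well, also mostly had changes above 0, whereas those of neutrophils did in 4 of 7 probe sets. Ncr1 is on both the receptor list and the T and NK list. Of 16 probe sets for T and NK cells 15 (93.75%) had changes above 0, beside 64.3% of all probe sets and 76.3% of the dim ones. Their median was 0.68, with none called (limma; 5 at an unadjusted p under 0.05). Their summed signal was 124 to 283 on knockout and 68.2 to 102 on heterozygous arrays. On their brightest probe sets these T and NK genes had mean signals from 1.81 to 28.2, so all were near the lower limit. Their part in the values of the receptors was not tested.

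Among ITAM adaptors other than Tyrobp, 8 of 10 probe sets had changes above 0 (median 0.27) and 0 were called (limma; 3 at an unadjusted p under 0.05). Cd247, the zeta chain of the T cell receptor, had the smallest p values, in 1426079_at (28.2 ± 18.1 against 6.19 ± 3.12, adjusted p = 0.276) and 1452539_a_at (8.68 ± 1.75 against 1.99 ± 1.57, adjusted p = 0.253). Ligands and Trem2 sheddases had a median of 0.31 over 22 probe sets, with 0 called (limma; 7 at an unadjusted p under 0.05). Adam10 and Adam17, the proteases that cleave Trem2, were at 84.2 ± 32.6 against 23.6 ± 5.65 in 1450104_at and at 67.96 ± 26.9 against 19.2 ± 9.32 in 1421857_at. The brightest Adam10 probe set, 1428103_at, had the opposite sign (-0.39 ± 0.22, adjusted p = 0.385), as did the brightest of Adam17, 1421858_at (-0.07 ± 0.37).

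Kinases of the Src and Syk families were the one role with a median below 0 (-0.07 over 17 probe sets, 0 called in limma, 4 at an unadjusted p under 0.05). Src, the prototype of the kinases that phosphorylate ITAMs and abundant in neurons, was lower on all knockout arrays in both probe sets. Src 1450918_s_at read 105, 75.7 and 79.7 in the knockouts against 233, 253 and 189 in the heterozygotes (-1.23 ± 0.22, adjusted p = 0.0593). It passed the threshold among probe sets above the median level (adjusted p = 0.0354). Src 1423240_at was at 40.8 ± 29.4 against 111 ± 13.2 (-1.30 ± 0.39, adjusted p = 0.176).

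Adaptors and scaffolds had a median of 0.22 over 39 probe sets, 0 called (limma; 6 at an unadjusted p under 0.05). Grb2, which couples tyrosine kinases to Ras, had a change of -0.98 ± 0.26 in 1418508_a_at (adjusted p = 0.139) and of -0.11 ± 0.19 in 1449111_a_at. Gab1, a docking protein for PI3-kinase, had a change of -0.82 ± 0.21 in 1417693_a_at (adjusted p = 0.136) and of 1.09 ± 0.41 in 1448814_at.

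PI3-kinase and phospholipase C genes had a median of 0.22 over 34 probe sets, 0 called (limma; 11 at an unadjusted p under 0.05). Akt2, a kinase activated by PI3-kinase lipids, had a change of 1.62 ± 0.32 in 1421324_a_at (87.4 ± 20.7 against 17.6 ± 6.80, adjusted p = 0.0812). Its brightest probe set, 1424480_s_at, had a change of 0.12 ± 0.21. Pik3r1, the regulatory subunit that holds Pik3cd at receptors, had changes above 0 in all 4 probe sets, from 0.30 to 1.31, the last in 1425515_at (241 ± 63.4 against 86.8 ± 22.96, adjusted p = 0.0834).

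Effectors downstream of Vav had a median of 0.32 over 55 probe sets and held the called Ptk2b (10 at an unadjusted p under 0.05). Rasgrp1, a Ras activator that also occurs in striatal neurons, had changes above 0 in 4 of 4 probe sets, with 1450143_at at 200.4 ± 52.4 against 55.7 ± 27.5 (1.64 ± 0.32, adjusted p = 0.0834). Inhibitory receptors and phosphatases had a median of 0.28 over 38 probe sets, 0 called (limma; 6 at an unadjusted p under 0.05). Sirpa, the receptor of the CD47 signal that neurons and microglia both carry, had a change of 1.21 ± 0.27 in 1448534_at (adjusted p = 0.102) and of 1.12 ± 0.33 in 1416986_a_at (adjusted p = 0.171). Its brightest probe set, 1416985_at, had a change of -0.42 ± 0.18 (adjusted p = 0.291).

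**Figure D4:**
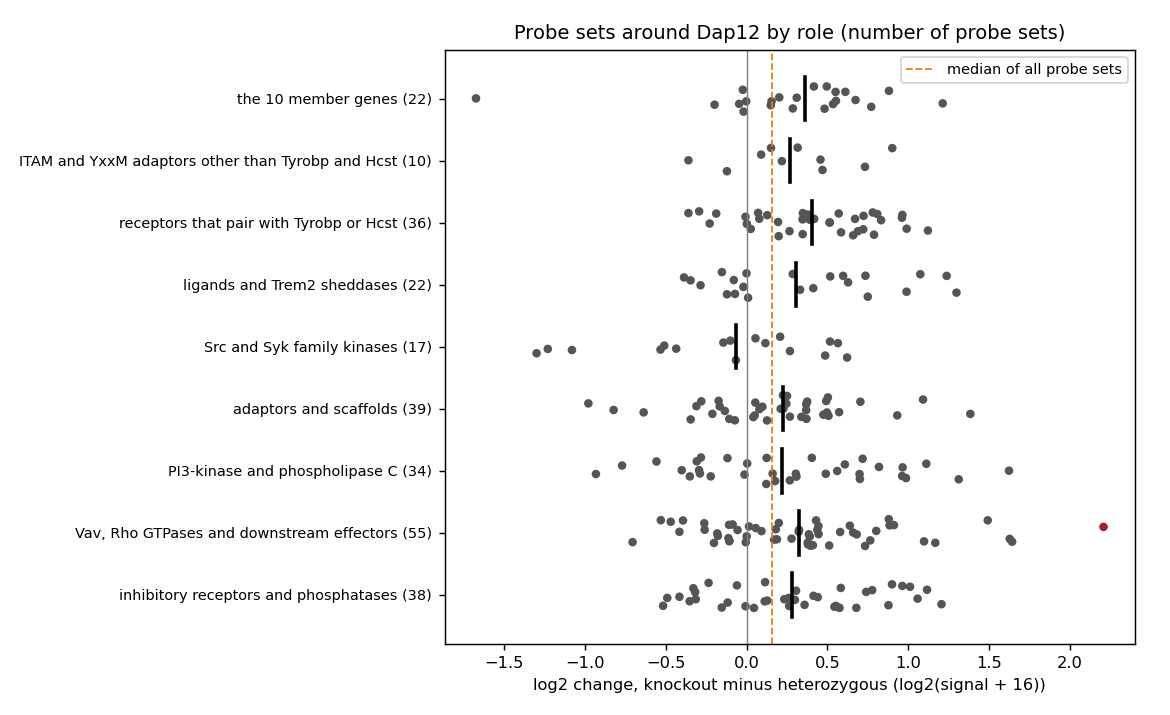
Change on the log2(signal + 16) scale of the 22 member probe sets (top row) and of the other pathway genes by role, each point 1 probe set, black bars the median of a row, and red for an adjusted p under 0.05. Medians lie between -0.07 (Src and Syk family kinases) and 0.40 (receptors), and the 1 red point is Ptk2b at 2.21.

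The probe sets whose log2 values over the 6 arrays were most like those of Tyrobp, out of 34944 with a single symbol, were of Hspb1 (1422943_a_at, Pearson r = 0.994), Marchf5 (1428843_at, 0.994), Hdac5 (1415743_at, 0.991), Gpc6 (1437417_s_at, 0.990) and Zfp771 (1440817_x_at, 0.990). These are descriptions over 6 arrays that share the split between the groups, and 605 probe sets had an r above 0.9. Each was lower on all knockout arrays, Hspb1, a small heat shock protein, at 116 ± 31.5 against 249 ± 18.8 and Hdac5, a histone deacetylase of neurons and muscle, at 288 ± 59.3 against 626 ± 35.9 (SD, n = 3). Marchf5 was at 388 ± 55.9 against 541 ± 15.3, Gpc6 at 15.9 ± 11.1 against 51.8 ± 7.04, and Zfp771 at 311 ± 42.04 against 502 ± 34.4. No other member was among them.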

How the data were processed

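Total RNA of 6 mouse brain samples was measured on one-colour Affymetrix arrays by the one-cycle biotin protocol, per the labels' protocols. GCOS, the array maker's scanning software, is the tool named, per the submitters' processing notes. Its version, how probes were summarised and whether a transcript was called present are not given in the sources used here. Values deposited by the authors were linear signal intensities, scaled per array, of 45101 probe sets, 64 of them controls that were left out of the tests. Of the others, 34945 had 1 gene symbol in the platform annotation, 932 several and 9160 none.

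Signals were taken as log2(signal + 16), and all 45037 probe sets were fitted with limma 3.58.1 in R 4.3.3 (lmFit on group, eBayes with trend, two-sided, Benjamini-Hochberg, threshold 0.05). No filter on level was used, since the rule for the members includes dim probe sets. The procedure was tested on simulated data. Exact permutation tests were two-sided, and overlap was judged on signals. The number of arrays limits the precision.

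Named besides the members were the pathway probe sets that passed and the 2 with the smallest p per role, 6 microglial markers, and the 5 probe sets most like Tyrobp. Further probe sets of those genes were given because their values differed, chosen after they were seen. The members and lists were chosen with earlier results of these data known. Listed genes without a probe set of a single symbol were not analysed here. Lists were described by counts and medians. Marker lists covered microglia, border macrophages and monocytes, neutrophils, T and NK cells, B cells, oligodendrocytes, astrocytes, neurons and endothelium. Alternatives were other scaling, added values, filters, variance models, weights per array, a covariate for the level of Xist and the omission of each array. Added after the data were seen were the omission of knockout 67 and 68 together and Tyrobp relative to microglial markers.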

Additional observations from a re-analysis of the deposited data

Results flagged for a closer look

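Control signals outside the mouse transcripts differed between the groups. The 18 hybridisation controls had a median log2 ratio of knockout over heterozygous of 2.38, with geometric mean signals of 3766, 1862 and 1711 on knockout 67, 68 and Ko1 and 437 to 498 on heterozygous arrays. The 24 poly-A controls had a median log2 ratio of 1.41. The order of the hybridisation controls among the knockout arrays, 67 highest and Ko1 lowest, was also that of 6 of the 22 member probe sets (Hcst, both of Vav1, Syk 1418262_at, and Pik3cd 1458321_at and 1422991_at). The median signal of all probe sets ran in the same order (40.3, 35.7 and 24.6 on knockout 67, 68 and Ko1). How many of all probe sets had this order was not counted, so the 6 have no background to be read against. The part of these controls in any member's value was not tested.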

How the results depend on the processing

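No paired analysis was possible because the groups share no replicate names. Of 323 values of the 21 member probe sets other than Tyrobp under the alternatives, 276 kept their sign and their side of the threshold, 45 changed sign and 2 passed, both of Pik3cd without knockout Ko1. For 9 of the 21 probe sets the sign never changed in the fits run.

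Tyrobp kept its sign in every fit run, from -1.94 to -1.38 with 1 array left out. It passed with array weights (-1.54, adjusted p = 0.0423), with arrays centred on their medians (-2.08, adjusted p = 0.0361) and above the median level (-1.68). These gave 1 member lower, as did the omission of Ko1, and with 1 array left out members ranged from 0 to 2 higher and 0 to 1 lower (limma; 1 to 6 of 22 at an unadjusted p under 0.05). Tyrobp met the filter on level only through the heterozygous arrays, where alone it was above the median of the array. Knockout 68 held the highest Tyrobp level of its group and 67 the lowest.

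Log2 changes took the other sign with the Xist covariate for Trem2 1421226_at (-0.45), Clec5a (0.21), Syk 1418261_at (0.82) and 1425797_a_at (-0.024), Pik3cd 1422991_at (-0.083), Inpp5d 1418110_a_at (-0.63) and Aif1 (0.12). With centring on medians they did for Trem2 1421226_at (-0.12), Syk 1457239_at (-0.25) and 1425797_a_at (-0.20), Pik3cd 1453281_at (-0.092), Inpp5d 1418110_a_at (-0.25), Csf1r (-0.055) and Cx3cr1 (-0.018). With quantile normalization this held for Syk 1457239_at (-0.10) and 1425797_a_at (-0.042), Pik3cd 1453281_at (-0.036) and Inpp5d 1418110_a_at (-0.089). With array weights it held for Clec5a (0.047), Syk 1418261_at (0.32), Vav1 1422932_a_at (0.011) and Inpp5d 1418110_a_at (-0.18), with 64 added for Syk 1418261_at (0.061) and Plcg2 (0.018), and with a floor of 1 for Inpp5d 1418110_a_at (-0.012). Without knockout 67 and 68 together it held for Trem2 1421226_at (-0.22), Syk 1418262_at (-0.63) and 1457239_at (-0.43), Plcg2 (0.15), Pik3cd 1422991_at (-0.25) and Aif1 (0.13).

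With 1 array left out, changes ranged from -0.27 to 0.66 for Trem2 1421226_at, from -0.21 to 0.11 for Clec5a, from -0.66 to 0.42 for Syk 1418261_at and from -0.35 to 0.45 for Syk 1457239_at. They ranged from -0.52 to 0.57 for Plcg2, from -0.073 to 0.054 for Vav1 1422932_a_at, from -0.23 to 0.73 for Inpp5d 1418110_a_at, from -0.35 to 0.091 for Ptpn6 1460188_at and from -0.34 to 0.055 for Aif1. The cause was not tested.

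Of all probe sets, 38 were called higher and 39 lower with 64 added, 719 and 527 with array weights, 280 and 165 above the median level, 168 and 186 in the top 25%, 145 and 122 with a floor of 1, 22 and 4 without a trend of the spread, and 213 and 118 with robust estimation. Centring left 299 lower and quantile normalization 34. The count was 0 with the Xist covariate (limma; 6115 at an unadjusted p under 0.05) and without knockout 67 and 68 (8186), a fit that leaves 1 knockout array, assumed to vary as the heterozygous arrays do. With 1 array left out it ran from 0 to 3754 higher and from 0 to 2133 lower. It was 0 without knockout 67 (6796 at an unadjusted p under 0.05), knockout 68 (6302), heterozygous 75 (3910) and heterozygous 81 (4270).

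The pathway list had 6 higher and 2 lower with array weights, 4 and 1 above the median level, 2 and 1 in the top 25%, 3 and 1 with robust estimation, 3 lower with centring and 1 lower with a floor of 1. It had 0 higher with the Xist covariate (42 at an unadjusted p under 0.05) and without knockout 67 and 68 (61), and 0 to 35 higher and 0 to 6 lower with 1 array left out, the highest without Ko1 (33 to 51 at an unadjusted p under 0.05 where none was called).

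Median changes of members, all probe sets and the pathway list were -0.039, -0.25 and -0.13 with centring. For all probe sets and the pathway list they were 0.073 and 0.13 with 64 added, 0.0017 and 0.097 above the median level, -0.11 and -0.056 in the top 25%, 0.27 and 0.44 with a floor of 1, 0.0016 and 0.059 with quantile normalization, and 0.043 and 0.10 without knockout 67 and 68. Low signal also limits the members, 58 of whose 132 values were at or under the highest Trpn control signal.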

Other observations

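Marker lists of other cells in the tissue gave these values, with counts over all probe sets tested in limma. Among all probe sets 0.14% were called higher and 0.135% lower, and 16.9% reached an unadjusted p under 0.05. Oligodendrocyte genes had 1 of 25 probe sets called higher and 0 lower, a median change of 1.00 and summed signals of 29439 to 68229 on knockout and 21824 to 22834 on heterozygous arrays, highest on knockout 67. Neuronal genes had 4 of 20 called higher and 0 lower (10 at an unadjusted p under 0.05), a median of 0.20 and sums of 17498 to 22706 against 15246 to 16919. Of these 20 probe sets 12 had changes above 0 (60%, beside 64.3% of all probe sets). Without overlap 8 were higher on knockout arrays and 2 lower, the 2 being Syp 1448280_at (-1.03) and Tubb3 1415978_at (-0.44). Astrocyte genes had 0 of 29 called (9 at an unadjusted p under 0.05), with a median of 0.36 over all probe sets, -0.11 over the brightest of each gene and sums of 14053 to 14981 against 10935 to 13480. Endothelial genes had 0 of 11 called (1 at an unadjusted p under 0.05), a median of 0.04 and overlapping sums.

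Markers of other blood cells were dim, with 0 called in each list (limma). Those of border macrophages and monocytes summed to 218 to 252 on knockout and 81.9 to 156 on heterozygous arrays (3 of 13 probe sets at an unadjusted p under 0.05), those of neutrophils to 63.1 to 154 against 44.8 to 80.02 (1 of 7), and those of B cells to 153 to 205 against 60.9 to 124 (1 of 18).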
